A study of Mus musculus with 6 samples.

Results

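Mitochondrial ribosomal proteins were taken as every array probe whose platform gene symbol starts with Mrpl or Mrps followed by a digit. This gave 132 of 45281 probes, for 76 of 19057 named genes, of which 48 carry an Mrpl symbol and 28 an Mrps symbol. By the place of the protein, 50 belong to the large subunit and 26 to the small subunit, since Mrps18a and Mrps30 sit in the large subunit in spite of their names. The arrays held ventromedial hypothalamus RNA of mice aged 16 weeks on a mixed genetic background, in 3 pools labelled SIRT1 deletion (genotype Sf1-Cre; Sirt1loxP/loxP) and 3 pools labelled control (genotype Sirt1loxP/loxP). All mice of both groups were therefore homozygous for the floxed Sirt1 allele, and the groups differ by Sf1-Cre. The Sf1 promoter drives Cre in neurons that express SF1, so the deletion concerns some of the cells in the tissue and the arrays measure all of them. How many mice went into a pool, and of which sex, is not stated in the labels, and p-values therefore reflect pool-to-pool spread only. In such bulk RNA, fewer cells of a type and less RNA per cell cannot be told apart.

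Mitochondria carry their own ribosome, which translates the few mRNAs of mitochondrial DNA into membrane subunits of the respiratory chain and the ATP synthase. Its rRNAs come from mitochondrial DNA, but all its proteins are encoded in the nucleus, made in the cytosol and imported. Many of them are counterparts of bacterial ribosomal proteins, and the others are found only in mitochondria. SIRT1 is a nuclear deacetylase that depends on NAD+ and is known to deacetylate PGC-1alpha, a coactivator of nuclear genes for mitochondria. Neurons of the ventromedial nucleus that express SF1 take part in the control of energy balance.

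Transcripts of the mitochondrial ribosome were broadly expressed in both groups and no member passed the test for a difference between them. Of the 132 probes, 109 (82.6%) were detected (detection p under 0.05 on 3 or more of the 6 arrays), against 45.1% of all probes. A gene was represented by its detected probe of highest mean, which left 72 measured members, 47 of the large and 25 of the small subunit. Of these, 71 were detected on all 6 arrays. The exception was Mrps27, a small subunit protein found only in mitochondria, detected in 1 SIRT1 deletion pool and 2 control pools. Mrpl19, Mrpl32, Mrpl39 and Mrps14 were detected on no array and could not be tested. The 2 probes of Mrpl19, for example, read 121.2 to 139.9 units in the SIRT1 deletion pools and 132.5 to 142 units in the control pools, where the lowest signal of any probe on an array was 104.0 to 111.6.

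Levels below are log2 intensities after background correction, an offset of 16 and quantile normalisation, and a fold change gives SIRT1 deletion over control on this scale, which understates the change of dim probes. With limma and Benjamini-Hochberg adjustment over all 14221 measured features (genes and unnamed probes), 0 of 72 members had an adjusted p under 0.05, where 0.105% of all features did (0.0563% higher and 0.0492% lower). At an unadjusted p under 0.05 there were 2 members (2.78%), against 8.82% of all features. They were Mrpl11, higher in the SIRT1 deletion pools (background 4.61%), and Mrpl43, lower (background 4.21%). The lowest adjusted p of any member was 0.431. This share depended on the processing. It was 12.5% of members, against 10.2% of all features, with no background correction, and 7.89%, against 7.69%, with no probe filter.

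Most members were bounded closely. The 95% interval of the fold change lay within 1.5-fold in either direction for 69 of 72 members (95.8%), where 90.5% of all features did so. It lay within 1.2-fold for 20 members (27.8%), where the background was 19%. For Mrpl11 the interval ran from 1.1-fold to 1.59-fold. The interval of Mrpl57 reached 1.51-fold, and that of Mrps27 ran from 0.556-fold to 1.52-fold. It included 0 on the log2 scale for 70 members. The members' log2 fold changes ran from -0.25 to 0.41 with a median of -0.01, and 33 were above 0 and 39 below (45.8% above, against 48.5% of all features). With the arrays brought to the same median in place of quantile normalisation, the median of all features was itself -0.13, so a change of sign under this median scaling includes that common shift. On it 6 members were above 0, namely Mrpl11, Mrpl9, Mrpl48, Mrpl24, Mrpl57 and Mrpl35, and 26 of 72 were above the median of all features. The median size of the log2 fold change was 0.09 in members and 0.10 in all features.

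**Figure D1:**
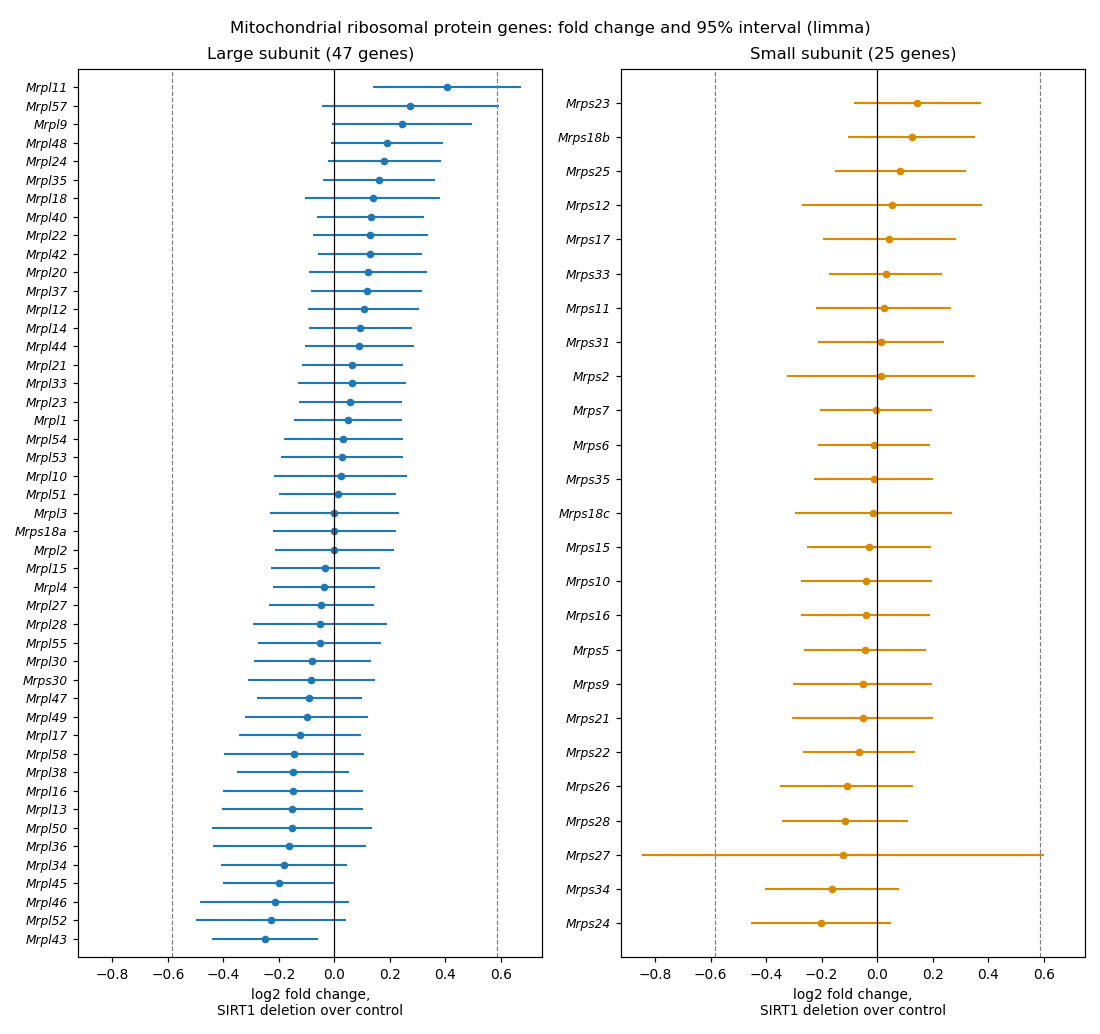
Log2 fold change, SIRT1 deletion over control, of each measured member with its 95% interval from limma, the 47 large subunit genes in one panel and the 25 small subunit genes in the other. Nearly all intervals cross 0, with Mrpl11 (0.41) and Mrpl43 (-0.25) the exceptions at the ends of the large subunit panel.

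Mrpl11, the counterpart of bacterial ribosomal protein L11 at the base of the stalk where translation factors bind, had the largest fold change of all members in this fit. Its log2 intensity was 9.06, 9.35 and 9.48 in SIRT1 deletion pools 1 to 3, against 8.89, 8.84 and 8.94 in control pools 1 to 3. Every SIRT1 deletion pool lay above every control pool on this scale, with pool 1 the nearest to them. The deposited signals, which are not scaled between arrays, did overlap. They were 609, 737.1 and 791.7 units in SIRT1 deletion pools and 618.5, 606.6 and 649.3 in control pools. The means were 9.30 ± 0.22 in SIRT1 deletion and 8.89 ± 0.05 in control pools (SD, n = 3 each). The log2 fold change was 0.41 (95% interval 0.14 to 0.67), with an unadjusted p of 0.0075 and an adjusted p of 0.431 by limma, so it did not pass. Over the alternative settings it stayed between 0.25 and 0.52.

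Mrpl43, a large subunit protein with no bacterial counterpart, stood at the other end. It measured 9.88, 9.84 and 9.97 in SIRT1 deletion pools and 10.14, 10.10 and 10.20 in control pools. The groups did not overlap and the pools of each group lay close together. Its log2 fold change was -0.25 (95% interval -0.44 to -0.06), with an unadjusted limma p of 0.0165 and an adjusted p of 0.516. It ranged from -0.42 to -0.18 over the alternative settings. A second detected probe of the gene measured 9.61, 9.51 and 9.62 in SIRT1 deletion pools and 9.71, 9.71 and 9.64 in control pools, for a log2 fold change of -0.11.

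Mrpl9, the counterpart of bacterial L9, and Mrpl45, which in the mammalian ribosome sits at the exit of the peptide tunnel and faces the inner membrane, were the next members by p in each direction. Mrpl9 had 9.55, 9.91 and 9.88 in SIRT1 deletion pools, against 9.56, 9.51 and 9.53 in control pools. Pools 2 and 3 of SIRT1 deletion lay above all controls and pool 1 lay among them. A second, dimmer probe of Mrpl9 had 8.555, 8.65 and 8.61, against 8.45, 8.549 and 8.44 in control pools (log2 fold change 0.12). Its groups did not overlap, by a small margin, while its deposited signals did. Mrpl45 had 5.12, 5.17 and 5.31 in SIRT1 deletion pools, against 5.41, 5.44 and 5.35 in control pools. These are dim values, since the lowest detected signal on an array was 4.86 to 4.90, and the groups did not overlap. The log2 fold change was 0.24 (adjusted limma p 0.565) for Mrpl9 and -0.20 (adjusted limma p 0.563) for Mrpl45.

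The start regions of these 4 members are shown because their fold changes lay farthest out by p in each direction, and that of Mrps12, a small subunit protein chosen after its values were seen, because it holds the third motif searched. Each is the RefSeq window of 300 bases on GRCm38.p6, from 250 bases before the annotated start to 50 after it, read 5′ to 3′ on the gene's strand. Capitals mark a match to GCGCATGC (the core of a site of the factor NRF1, whose matches on the 2 strands can overlap), CCGGAAGT (a site of the ETS family, to which GABPA belongs) or AAGATGGC (a site of YY1), each searched on both strands. The windows lie at chr19:4962056-4962355, plus strand for Mrpl11, at chr3:94443086-94443385, plus strand for Mrpl9, at chr19:45006393-45006692, minus strand for Mrpl43, at chr11:97315466-97315765, plus strand for Mrpl45 and at chr7:28741772-28742071, minus strand for Mrps12.
Mrpl11: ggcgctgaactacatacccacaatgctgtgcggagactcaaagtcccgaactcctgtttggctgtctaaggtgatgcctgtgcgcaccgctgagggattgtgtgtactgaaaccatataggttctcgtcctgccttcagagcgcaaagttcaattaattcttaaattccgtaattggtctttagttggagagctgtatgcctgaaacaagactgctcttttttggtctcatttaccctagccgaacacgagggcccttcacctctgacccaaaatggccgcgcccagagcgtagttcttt
Mrpl9: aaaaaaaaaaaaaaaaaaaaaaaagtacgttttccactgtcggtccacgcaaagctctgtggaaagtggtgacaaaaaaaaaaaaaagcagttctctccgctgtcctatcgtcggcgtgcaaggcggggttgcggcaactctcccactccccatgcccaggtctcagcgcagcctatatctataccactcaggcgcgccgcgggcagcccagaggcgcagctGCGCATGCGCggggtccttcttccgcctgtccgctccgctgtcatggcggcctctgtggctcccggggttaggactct
Mrpl43: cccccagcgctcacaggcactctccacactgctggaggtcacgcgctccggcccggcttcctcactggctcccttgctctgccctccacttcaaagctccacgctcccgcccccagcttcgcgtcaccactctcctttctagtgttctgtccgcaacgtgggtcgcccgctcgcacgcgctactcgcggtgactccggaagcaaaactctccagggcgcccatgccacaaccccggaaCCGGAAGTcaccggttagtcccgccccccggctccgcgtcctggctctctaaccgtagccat
Mrpl45: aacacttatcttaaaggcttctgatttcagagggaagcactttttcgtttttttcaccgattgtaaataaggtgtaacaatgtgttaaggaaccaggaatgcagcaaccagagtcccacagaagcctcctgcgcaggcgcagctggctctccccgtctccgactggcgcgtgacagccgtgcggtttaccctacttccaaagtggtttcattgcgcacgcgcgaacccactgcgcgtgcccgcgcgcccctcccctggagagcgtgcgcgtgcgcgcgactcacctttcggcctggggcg
Mrps12: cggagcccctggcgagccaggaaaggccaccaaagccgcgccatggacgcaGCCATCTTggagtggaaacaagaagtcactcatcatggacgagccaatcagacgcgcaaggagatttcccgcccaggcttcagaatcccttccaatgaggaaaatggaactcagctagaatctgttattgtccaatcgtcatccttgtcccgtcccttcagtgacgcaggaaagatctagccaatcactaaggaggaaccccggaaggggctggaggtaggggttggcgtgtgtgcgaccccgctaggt
Mrpl9 holds the NRF1 letters on both strands just before its start, Mrpl43 the ETS letters, and Mrps12 the reverse complement of the YY1 letters, GCCATCTT. Mrpl11 and Mrpl45 hold none of the 3 in this window.

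NRF1, GABPA and YY1 are known as activators of nuclear genes for mitochondria. The promoter table held 67 of the 76 members, in 73 windows. Any of the 3 motifs was in 29 member windows (39.7%), against 8.83% of all 32851 windows and 11% of the 21263 windows of protein-coding genes. The ETS letters were in 12 member windows (16.4%, against 3.89% of all windows and 5.15% of those of protein-coding genes). The YY1 letters were in 12 (16.4%, against 2.75% and 3.05%) and the NRF1 letters in 8 (11%, against 2.71% and 3.52%). The share with any motif was 40.8% in large subunit windows and 37.5% in small subunit windows. TATAAA within the 50 bases before the start was in 0 of 73 member windows. It was in 2.63% of all windows and in 3.17% of windows of protein-coding genes. Member windows also had a median of 21 CpG, against 13 in windows of protein-coding genes. The matches are letters in a window and no measure of binding, and GC-rich windows hold more GC-rich motifs, whose part in these shares was not tested.

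Members with and without a motif had fold changes on both sides of 0. The 12 measured members with the ETS letters had a median log2 fold change of -0.03 with 5 above 0, against 0.01 in the 52 without, 27 of which were above 0. Those with the YY1 letters were 11, with a median of -0.0008 and 5 above 0, against 0.0002 in 53 without. Those with the NRF1 letters were 6, Mrpl9 among them, with a median of 0.09 and 5 above 0, against -0.0022 in 58 without. These values describe members and were not tested against each other.

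**Figure D2:**
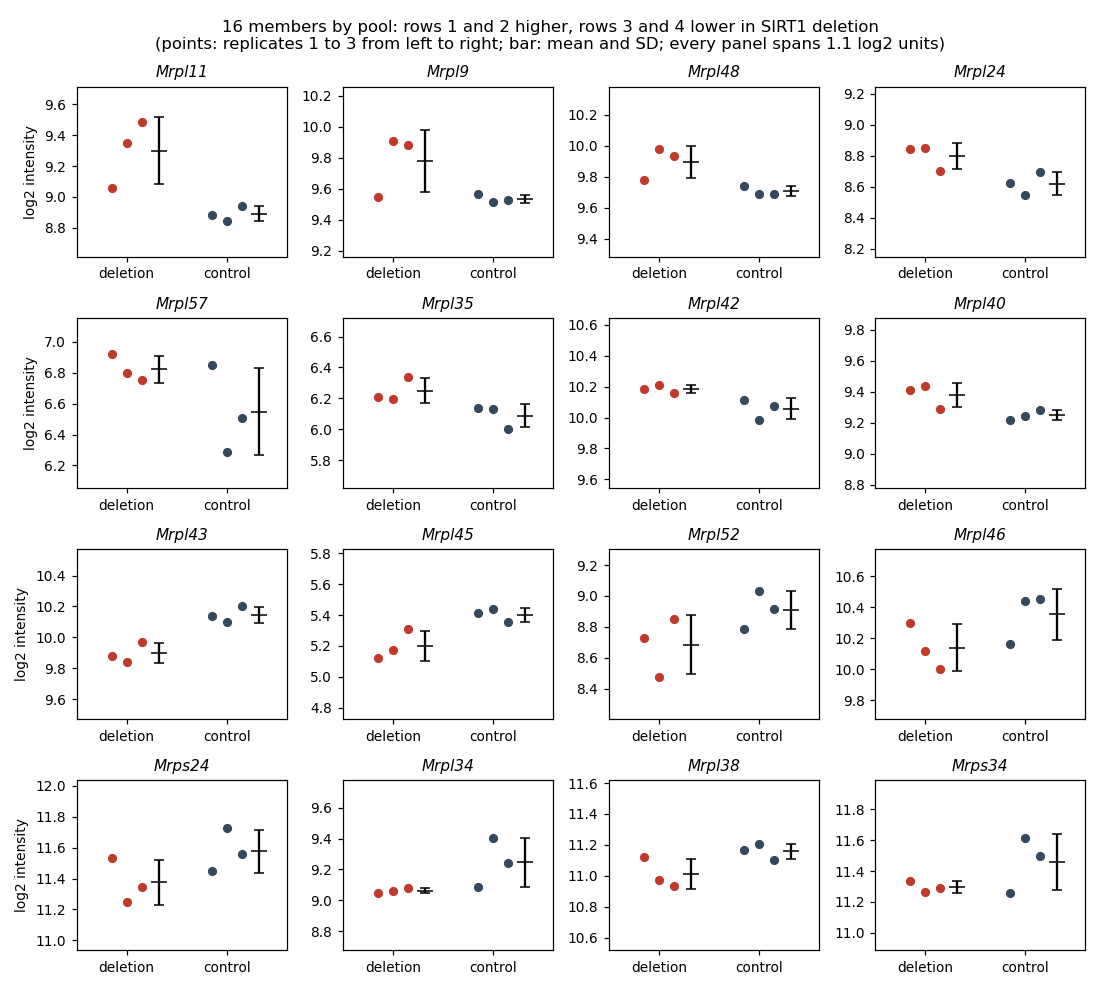
Log2 intensity of 16 members in each pool, SIRT1 deletion at the left and control at the right of each panel, with points for replicates 1 to 3 and bars for mean and SD. The upper rows hold the 8 members of lowest p with higher means in SIRT1 deletion (Mrpl42 and Mrpl40 turn sign under median scaling) and the lower rows the 8 with lower means, and the pools of the groups overlap for Mrpl9, Mrpl57, Mrpl52, Mrpl46, Mrps24, Mrpl38 and Mrps34.

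The stalk of the large subunit recruits elongation and other factors to the ribosome. All 5 stalk members had values above 0 under quantile normalisation. Under median scaling, which carries the common shift of all features, Mrpl11 alone of them stayed above 0. Mrpl12, the counterpart of the bacterial stalk protein L7/L12, had 10.34, 10.30 and 10.42 in SIRT1 deletion pools, against 10.23, 10.17 and 10.34 in control pools. Its log2 fold change was 0.11 (95% interval -0.09 to 0.31), and it was -0.06 under median scaling, above the -0.13 of all features there. Mrpl53, Mrpl54 and Mrpl10 had 0.03, 0.03 and 0.02. The stalk median was 0.03, and Mrpl11 stands apart from the other 4 stalk members in size.

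The central protuberance, which faces the small subunit, gave values in both directions. Of its 9 members 3 had values above 0 and 6 below, with a median of -0.05. Mrpl48 had 9.78, 9.98 and 9.93 in SIRT1 deletion pools, against 9.74, 9.69 and 9.69 in control pools, a log2 fold change of 0.19 (adjusted limma p 0.567). Mrpl40 had 9.41, 9.44 and 9.29, against 9.22, 9.24 and 9.28 in control pools, a log2 fold change of 0.13 that was -0.04 under median scaling. In both genes the groups did not overlap under quantile normalisation. Mrpl46, Mrpl52 and Mrpl38 had lower means in SIRT1 deletion, with overlapping groups.

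Mrpl46 had 10.30, 10.12 and 9.9999 in SIRT1 deletion pools, against 10.17, 10.44 and 10.46 in control pools (log2 fold change -0.22). Mrpl52 had 8.73, 8.48 and 8.85, against 8.79, 9.03 and 8.92 in control pools (-0.23). Mrpl38 had 11.12, 10.98 and 10.93, against 11.17, 11.20 and 11.10 in control pools (-0.15). Their adjusted limma p-values were 0.592 to 0.64. For Mrpl58, a peptidyl-tRNA hydrolase that can release stalled chains and is built into the ribosome, the log2 fold change was -0.14 (95% interval -0.40 to 0.11).

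At the exit of the peptide tunnel, where the new chain meets the inner membrane, 3 of 6 members had values above 0 and 3 below, with a median of -0.02. Mrpl24 had 8.84, 8.85 and 8.70 in SIRT1 deletion pools, against 8.62, 8.54 and 8.69 in control pools, a log2 fold change of 0.18 (adjusted limma p 0.582). Mrpl47 had 9.26, 9.13 and 9.25, against 9.31, 9.29 and 9.31 in control pools (-0.09), and its mean over both detected probes turned the sign to 0.04. Under quantile normalisation the groups did not overlap for Mrpl24, Mrpl45 and Mrpl47, and the directions differed among these 3. Mrpl22 had 9.28 in every SIRT1 deletion pool, against 9.07, 9.09 and 9.29 in control pools (0.13).

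Over the whole large subunit, 24 of 47 members had values above 0 and 23 below, and the median was 0.00015. The 28 with a bacterial counterpart had a median of 0.01 and the 19 found only in mitochondria one of -0.0008. For 7 large subunit members every SIRT1 deletion pool lay above every control pool, and for 4 every one lay below. These are 14.9% and 8.51% of the 47 large subunit members, and 9.72% and 5.56% of all 72 members. Of all features, 7.04% and 7.21% did the same. The 7 were Mrpl11, Mrpl48, Mrpl24, Mrpl35, Mrpl42, Mrpl40 and Mrpl14, and the 4 were Mrpl43, Mrpl45, Mrpl34 and Mrpl47. Of the first set, Mrpl42 (0.13), Mrpl40 and Mrpl14 (0.09) turned sign under median scaling, where Mrpl42 was -0.04. In the deposited signals, which are not scaled between arrays, the groups overlapped for each of the 7 and for none of the 4. The median deposited signal was lower in SIRT1 deletion pools than in control pools.

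Other large subunit members of low p did not pass the test either. Mrpl57, a short protein, had 6.92, 6.80 and 6.75 in SIRT1 deletion pools, against 6.85, 6.29 and 6.51 in control pools, and control pool 1 lay above SIRT1 deletion pools 2 and 3. Its log2 fold change was 0.27 (95% interval -0.05 to 0.59). Mrpl35 had 6.21, 6.19 and 6.34, against 6.13, 6.13 and 6.002 in control pools (0.16). Mrpl34 had 9.05, 9.06 and 9.08, against 9.09, 9.41 and 9.24 in control pools (-0.18), so its control pools were the more spread. Mrpl57 was thus the one of these 3 whose groups overlapped.

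The small subunit, which binds mRNA and holds the decoding site, gave values near 0. Of its 25 members 9 had values above 0 and 16 below, with a median log2 fold change of -0.01 and a median size of 0.04, against 0.12 for the large subunit. Counterparts of bacterial proteins were 4 above 0 and 11 below (median -0.03), and proteins found only in mitochondria 5 and 5 (median 0.0007). With limma, 0 of the 25 had an adjusted p under 0.05 (0.105% of all features) and 0 an unadjusted p under 0.05 (8.82% of all features). The groups did not overlap for 0 of the 25, where this held for 14.3% of all features. The lowest adjusted p was 0.609. The subunits were not tested against each other.

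The lowest p of the small subunit belonged to Mrps24, the counterpart of bacterial S3, which lines the channel where mRNA enters. It had 11.53, 11.25 and 11.34 in SIRT1 deletion pools, against 11.45, 11.73 and 11.56 in control pools, a log2 fold change of -0.20 (95% interval -0.45 to 0.05). SIRT1 deletion pool 1 lay above control pool 1. Mrps34, found only in mitochondria, had 11.34, 11.26 and 11.29, against 11.26, 11.62 and 11.49 in control pools (-0.16). The largest positive value was that of Mrps23, with 10.20, 10.36 and 10.52 in SIRT1 deletion pools, against 10.21, 10.20 and 10.23 in control pools. Its log2 fold change was 0.15 (95% interval -0.08 to 0.37), and -0.03 under median scaling.

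Mrps5, whose counterpart in Caenorhabditis elegans affects lifespan when its expression is reduced, had 7.51, 7.61 and 7.33 in SIRT1 deletion pools, against 7.56, 7.49 and 7.53 in control pools. The log2 fold change was -0.04 (95% interval -0.26 to 0.18, adjusted limma p 0.915). Mrps27 had 4.68, 4.69 and 5.81, against 5.51, 4.70 and 5.34 in control pools, near the lowest detected signal, so its wide interval says little. Its log2 fold change was -0.12.

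Mrps18a, Mrps18b and Mrps18c are paralogues that descend from bacterial S18 and take different places in the ribosome, Mrps18a in the large subunit. Mrps18c was counted above as the bacterial counterpart, and Mrps18a and Mrps18b with the proteins found only in mitochondria. Mrps18a had 9.92, 9.75 and 9.88 in SIRT1 deletion pools, against 9.97, 9.85 and 9.74 in control pools, a log2 fold change of -0.0008 (95% interval -0.22 to 0.22). Mrps18b had 9.29, 9.41 and 9.61, against 9.30, 9.29 and 9.35 in control pools (0.12, 95% interval -0.10 to 0.35), and -0.04 under median scaling. Mrps18c had 9.15, 9.15 and 9.56, against 9.28, 9.26 and 9.37 in control pools (-0.01, 95% interval -0.30 to 0.27). SIRT1 deletion pool 3 was the highest of its group in Mrps18b and Mrps18c. Mrps30, the other large subunit protein with an Mrps name, had 9.81, 9.76 and 9.73, against 9.82, 10.02 and 9.71 in control pools (-0.08).

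Different probes of a member did not always go the same way. Of 24 members with several detected probes, 13 had probes of 1 sign and 11 did not, namely Mrpl13, Mrpl15, Mrpl3, Mrpl37, Mrpl47, Mrpl49, Mrpl51, Mrps10, Mrps23, Mrps25 and Mrps31. Taking each of the 109 detected probes alone, 55 had a log2 fold change above 0 and 54 below. Of these probes 6 (5.5%) had an unadjusted limma p under 0.05, against 8.47% of all 20402 detected probes. With adjustment over all probes the lowest p of a member's probe was 0.458, and 0.049% of all probes had an adjusted p under 0.05.

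That lowest value came from Mrpl15, the member with the most probes, of which 6 were detected. Its brightest probe had 9.66, 9.80 and 9.76 in SIRT1 deletion pools, against 9.84, 9.77 and 9.70 in control pools (log2 fold change -0.03). A dimmer probe had 7.07, 6.97 and 7.04, against 6.86, 6.82 and 6.50 in control pools (0.30), and the dimmest had 4.69, 4.82 and 4.88, against 5.12, 5.08 and 5.34 in control pools (-0.38). In both of these the groups did not overlap, in opposite directions, and the dimmest was detected in 1 SIRT1 deletion pool and 3 control pools. In SIRT1 deletion pools 1 and 2 its values lay below the lowest detected signal on an array (4.86 to 4.90), so the size of its difference is not measured.

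In Mrpl48 and Mrps18b the detected probes shared a sign. The 3 probes of Mrpl48 had log2 fold changes of 0.19, 0.28 and 0.19. The second of them read 9.79, 9.97 and 9.97 in SIRT1 deletion pools, against 9.65, 9.51 and 9.74 in control pools. The 3 probes of Mrps18b had 0.12, 0.34 and 0.17. Its second probe read 7.98, 8.25 and 8.40, against 7.90, 7.84 and 7.87 in control pools (adjusted limma p 0.536 over all probes). Where probes differed, the files give no reason, and different transcripts or cross-hybridisation were not tested.

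**Figure D3:**
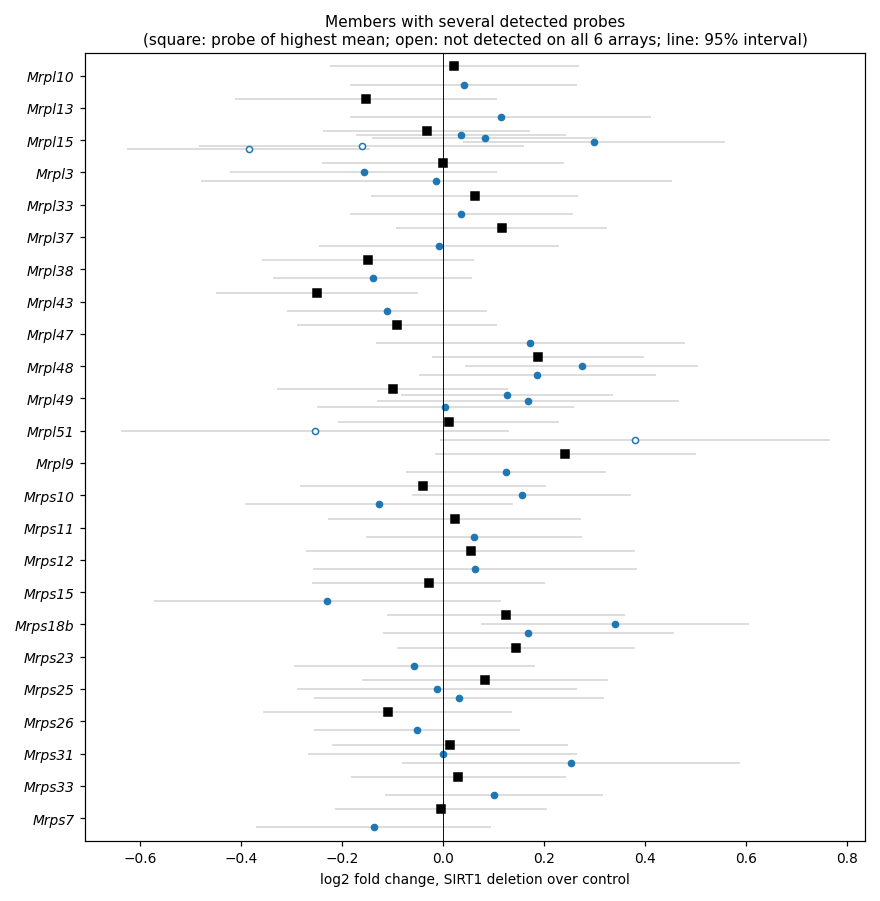
Log2 fold change, SIRT1 deletion over control, with 95% intervals, of every detected probe of the 24 members with several, the square marking the probe of highest mean and open symbols those not detected on all 6 arrays. Probes of Mrpl15 lie on both sides of 0, the lowest of them (-0.38) an open symbol whose size is not measured, and those of Mrpl48 from 0.19 to 0.28.

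The pools of the SIRT1 deletion group differed among themselves in the members. The median deviation of the 72 members from their mean over all 6 pools was 0.04, -0.05 and 0.02 in SIRT1 deletion pools 1 to 3, and -0.01, -0.02 and 0.02 in control pools 1 to 3. The share of members above their mean was 59.7%, 36.1% and 63.9% in SIRT1 deletion pools, and 44.4%, 40.3% and 58.3% in control pools. For all features the share was between 49.9% and 51.2% in every pool. SIRT1 deletion pool 2 was the lowest pool for 18 of 72 members (all features: 19.4%) and the highest for 7 (9.72%, against 19.4%). In the large subunit the median deviation of that pool was -0.05, and in the small subunit -0.06.

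The members' SD was larger among SIRT1 deletion pools than among control pools for 50 of 72 members (69.4%, against 55.2% of all features). The median SD was 0.11 in SIRT1 deletion pools and 0.08 in control pools, where all features had 0.12 and 0.11. SIRT1 deletion pool 1 lay with the control pools on the first principal component of all features, at 3.44, while pools 2 and 3 lay at -16.0 and -15.1 and the control pools at 4.44, 14.9 and 8.26. Without that pool 10 members had an unadjusted p under 0.05 (13.9%, against 14.3% of all features then), and 0 had an adjusted p under 0.05 by limma.

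Pool 1 lay apart from pools 2 and 3 in several members as well as in the brightest probe of Mrpl9. Mrpl13 had 11.13, 10.77 and 10.83 in SIRT1 deletion pools, against 11.12, 11.04 and 11.02 in control pools. Mrpl36 had 10.29, 9.91 and 9.87, against 10.18, 10.24 and 10.15 in control pools. Mrpl50 had 10.34, 9.89 and 9.96, against 10.28, 10.16 and 10.22 in control pools. In these values of the 3, chosen after they were seen, pools 2 and 3 lay below all controls and pool 1 above them. The values of Mrpl13 are those of its brightest probe. In its second, dimmer probe pool 1 again lay above all controls, but pools 2 and 3 lay among them (log2 fold change 0.11).

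**Figure D4:**
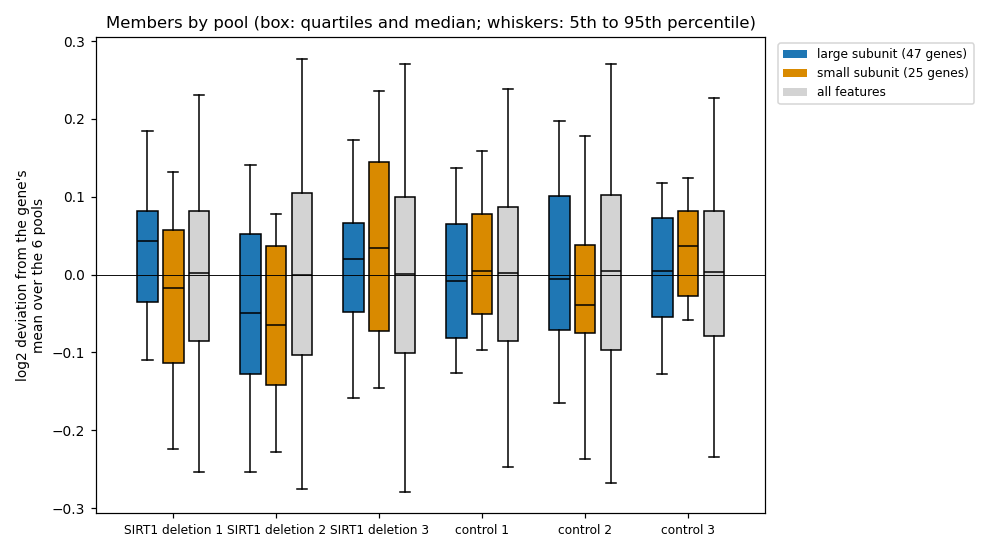
Deviation of members from their mean over the 6 pools, in log2 units, by pool with SIRT1 deletion pools at the left, for large subunit genes, small subunit genes and all features; boxes give quartiles and median, whiskers the 5th to 95th percentile. The members' boxes sit lowest in SIRT1 deletion pool 2, with medians of -0.05 for the large and -0.06 for the small subunit.

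Many members lie head to head with another gene. Of the 67 members in the promoter table, 23 (34.3%) had a protein-coding gene starting within 1000 bases in the opposite direction, against 8.47% of 17492 protein-coding genes. Both partners were measured in 15 pairs, and their fold changes had the same sign in 8 and opposite signs in 7. Mrpl43 lies beside Twnk, the helicase of mitochondrial DNA, which had -0.12. Mrps12, a protein of the decoding site (log2 fold change 0.05), lies beside Sars2, the mitochondrial seryl-tRNA synthetase (0.27). Mrpl46 and Mrps11 are such a pair within the ribosome and had -0.22 and 0.02. At an unadjusted limma p under 0.05 there were 4 partners in the 15 pairs, against 8.82% of all features. They were Gga3 beside Mrps7 (0.34), Sars2, Tcp1 beside Mrpl18 (0.23) and Tmem63b beside Mrpl14 (-0.23). This share was not tested. The lowest adjusted limma p of any partner was 0.525.

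Ribosomal proteins with other symbols were looked at as a separate list of 4 measured genes. Gadd45gip1, also known as CRIF1, which lies at the tunnel exit and is needed in mice for the insertion of respiratory chain subunits, had 5.82, 6.08 and 5.82 in SIRT1 deletion pools, against 5.41, 5.56 and 5.53 in control pools. These are dim values, since the lowest detected signal on an array was 4.86 to 4.90. The groups did not overlap on this scale. The deposited signals, which are not scaled between arrays, did overlap (169.5 to 182.4 units in SIRT1 deletion, 167.9 to 171.3 in control pools). The log2 fold change was 0.41 (95% interval 0.18 to 0.64), with an unadjusted limma p of 0.00341 and an adjusted p of 0.389. The other 3 had lower means in SIRT1 deletion, Chchd1 with -0.12, Ptcd3 with -0.12 and Dap3, a GTP-binding protein of the small subunit, with -0.11. Chchd1 was the one of these 3 whose groups did not overlap.

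The other genes of mitochondrial translation gave 0 calls by limma at an adjusted p under 0.05. Of 12 translation factors 4 had values above 0 and 8 below (median -0.02), none with an unadjusted p under 0.05. Tufm, the elongation factor that brings tRNA to the ribosome, had 10.61, 10.63 and 10.61 in SIRT1 deletion pools, against 10.84, 10.73 and 10.72 in control pools (-0.15, adjusted limma p 0.609). Oxa1l, the insertase that receives new chains, had a log2 fold change of 0.12. Of 17 mitochondrial aminoacyl-tRNA synthetases 10 were above 0 and 7 below (median 0.07), with 1 at an unadjusted p under 0.05. This was Sars2, with 6.92, 6.58 and 6.64 in SIRT1 deletion pools, against 6.45, 6.47 and 6.41 in control pools (adjusted limma p 0.542).

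Genes for building the ribosome and copying its genome lay near 0 as lists. Of 23 measured assembly and rRNA modification genes 14 were above 0 and 9 below (median 0.01), and none had an unadjusted p under 0.05. The value of Rbfa, a maturation factor of the small subunit, was -0.21 (95% interval -0.43 to 0.01), and that of Tfb1m, an rRNA methyltransferase, was 0.15. Of 14 genes of mitochondrial DNA maintenance and transcription 6 were above 0 and 8 below (median -0.01). Tfb2m, a transcription factor of mitochondria, had 7.89, 7.73 and 7.61 in SIRT1 deletion pools, against 8.01, 7.96 and 7.91 in control pools (-0.22, unadjusted limma p 0.0542).

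Among 10 regulators of nuclear genes for mitochondria 6 were above 0 and 4 below (median 0.05), with 1 at an unadjusted p under 0.05. It was Gabpb1, a subunit of the GABP factor whose ETS site was searched above, with 5.89, 6.07 and 5.88 in SIRT1 deletion pools, against 5.45, 5.62 and 5.88 in control pools (0.30, adjusted limma p 0.545). Ppargc1a, which encodes PGC-1alpha, had 0.21 (95% interval -0.11 to 0.54), and Nrf1 had -0.05. Pprc1, a coactivator related to PGC-1alpha, had -0.17.

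The products of the mitochondrial ribosome were represented by 8 measured transcripts of mitochondrial DNA, 3 above 0 and 5 below (median -0.01), with 1 at an unadjusted p under 0.05. COX2, a cytochrome oxidase subunit, had 12.08, 12.14 and 12.04 in SIRT1 deletion pools, against 11.91, 11.82 and 11.81 in control pools (0.24, adjusted limma p 0.523). ND4L had 0.35 and ND5 -0.23, both with overlapping groups. Of 16 genes of the mitochondrial unfolded protein response 9 were above 0 and 7 below (median 0.05). For Atf5, a transcription factor of that response, the log2 fold change was -0.19 (95% interval -0.40 to 0.01), and Ubl5, whose counterpart acts in it in Caenorhabditis elegans, had 0.21.

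**Figure D5:**
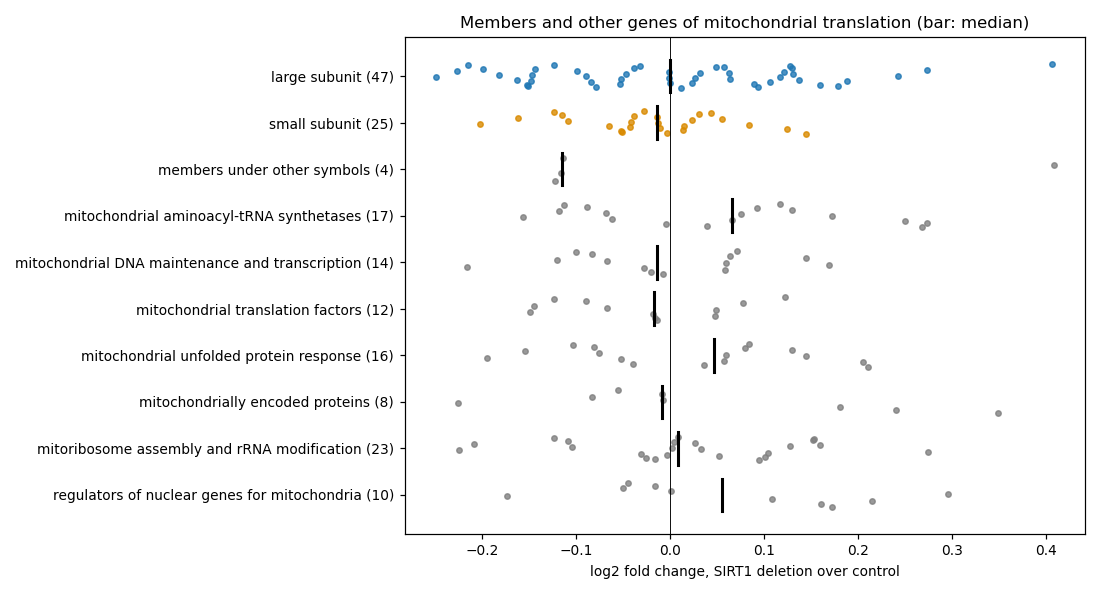
Log2 fold change, SIRT1 deletion over control, of each measured gene in the members' classes and in the other lists of mitochondrial translation, with a bar at each median and the number of genes in brackets. Under quantile normalisation all medians lie near 0, from -0.12 for the 4 ribosomal proteins with other symbols to 0.07 for the aminoacyl-tRNA synthetases.

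Facts of the arrays bear on all of these values. The arrays detected 20053 to 20611 probes and correlated with each other at 0.991 to 0.995, and 15 of 14221 features had an adjusted p under 0.05 by limma. The deposited signals were not scaled between arrays. The median signal of the members was 526.3 to 540.2 in SIRT1 deletion pools and 570.6 to 596.3 in control pools, and that of all probes was 140.4 to 142.1 in SIRT1 deletion pools and 145.5 to 149.4 in control pools. Under median scaling the members' median was -0.17, which was -0.03 relative to that of all features. On that scaling 7 of all features were called higher and 14 lower, against 8 and 7 under quantile normalisation, and 0 members were called. At an unadjusted p under 0.05 there were then 23 members (31.9%), all lower, against 22.4% of all features. Sirt1 itself had 7.77, 7.68 and 7.51 in SIRT1 deletion pools, against 7.81, 7.62 and 7.64 in control pools (log2 fold change -0.03, adjusted limma p 0.941). Where its probe lies relative to the deleted sequence is not stated in the labels, so it does not check them.

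All 8 markers of the ventromedial nucleus were measured, 2 with values above 0 and 6 below, with a median log2 fold change of -0.10. The 2 of lowest p went in opposite directions, each with groups that did not overlap. Sox14 had 8.33, 8.18 and 8.37 in SIRT1 deletion pools, against 8.58, 8.78 and 8.61 in control pools (-0.36, adjusted limma p 0.427). Nr5a1, the gene of SF1, had 5.30, 5.72 and 5.46 in SIRT1 deletion pools, against 5.11, 4.90 and 5.13 in control pools (0.45, adjusted limma p 0.427). Its values lie near the lowest detected signal on an array (4.86 to 4.90). Its deposited signals overlapped, with 153.8 to 168.1 units in SIRT1 deletion and 152.1 to 159.1 in control pools. Of 12 measured markers of exocrine pancreas, a tissue not named in the labels, all 12 had lower means in SIRT1 deletion, and 5 had an adjusted p under 0.05 by limma. Of these 5, Reg1 and Cela2a were detected on all 6 arrays, while Try5, Zg16 and Try4 were detected in 0 SIRT1 deletion pools and 3 control pools, so they passed the detection filter through the group in which they are high. The mean log2 intensity of all 12 pancreas markers was 5.62 to 6.03 in SIRT1 deletion pools and 6.77 to 7.07 in control pools. Markers of meninges averaged 5.80 to 6.46 in SIRT1 deletion pools and 5.81 to 6.97 in control pools. The part of these differences in the members' values was not tested.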

How the data were processed

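Biotinylated cRNA of 6 RNA pools was hybridised to Illumina bead arrays, per the labels. Per the file headers, the deposited main table gives each probe's mean bead intensity (linear scale) and detection p-value on each array. A second deposited table holds intensity values that the authors had quantile normalised, seen from its equal medians of 134.4, and served as an alternative. The labels name neither scanner software nor genome build.

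Background correction (normexp with the detection p-values, offset 16), quantile normalisation and log2 transformation were run with limma 3.58.1 in R 4.3.3. Probes detected (detection p under 0.05) on at least 3 of 6 arrays were kept, 20402 in all. A gene was represented by its detected probe of highest mean, and probes without 1 gene symbol (3172) stood alone. Symbols came from the platform annotation, and all 76 members matched RefSeq by gene ID. Groups were compared by lmFit and eBayes over all features, and the steps were tested on simulated data. Same-numbered pools deviated with correlations of -0.05 to -0.02, and nothing in the labels pairs them, so no block entered. Starts and promoter windows came from RefSeq on GRCm38.p6. No protein sequences were used here.

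Members and gene lists were chosen with earlier results of these data known. Members named by rule were, in each direction, the 8 of lowest p, those whose probes differ in sign and those not detected. The Mrps18 paralogues, Mrps30, Mrps5 and Mrpl12 were added, and of each other list the genes of lowest p were named. Other members, such as Mrpl22, Mrpl36, Mrpl50, Mrpl58 and Mrps12, were described for their place, motif or values. They are not among the 33 whose signs are counted below.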

Additional observations from a re-analysis of the deposited data

How the results depend on the processing

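All 20 alternatives gave 0 members with an adjusted p under 0.05 by limma, and the lowest adjusted p of a member in any of them was 0.126, without SIRT1 deletion replicate 1. The number of all features called, 15 here, was 2 with probes detected on all 6 arrays, 4 with a detection p under 0.01 on all 6, 9 with no probe filter, 10 with a replicate block, 29 with an intensity trend and robust prior, and 6 to 10 with each replicate left out. The replicate block, which the labels do not support, left 1 member higher and 1 lower at an unadjusted p under 0.05.

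At an unadjusted p under 0.05, 1 member was higher and 1 lower here (2.78%, against 8.82% of all features). The counts were 5 higher and 4 lower with no background correction (12.5% of members, against 10.2% of all features), 4 and 3 with normexp without detection p-values (9.72%, against 9.82%), 3 and 1 with an offset of 50 (5.56%, against 9.8%) and 4 and 3 in the authors' table (9.72%, against 10.2%). They were 0 and 23 under median scaling (31.9%, against 22.4%), 1 and 2 with probes detected on all 6 arrays (4.23%, against 9.52%), 2 and 1 with a detection p under 0.01 (4.29%, against 9.85%) and 4 and 2 with no filter (7.89%, against 7.69%). They were 2 and 2 with the mean of probes (5.56%, against 8.7%), 4 and 2 with every probe a feature (5.5%, against 8.47%), 3 and 4 with the trend (9.72%, against 9.89%) and 3 and 2 with array weights (6.94%, against 11.6%). With each replicate left out, 1 to 4 were higher and 0 to 6 lower. Both directions together came to 10, 1 and 5 without SIRT1 deletion replicates 1, 2 and 3 (13.9%, 1.39% and 7.04%, against 14.3%, 6.07% and 6.74% of all features). Without control replicates 1, 2 and 3 they came to 6, 2 and 1 (8.45%, 2.78% and 1.41%, against 9.8%, 5.23% and 7.38%).

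Median scaling moved the median log2 fold change of all features to -0.13, and those of all members, large and small subunit members to -0.17, -0.16 and -0.17. Without each replicate in turn these 3 medians ran from -0.028 to 0.020, from -0.031 to 0.048 and from -0.048 to 0.014. Under median scaling, which carries that common shift, 6 members were above 0, against 33 under quantile normalisation. Among the members named by rule, the sign then turned in Mrpl3, Mrpl51, Mrps25 and Mrps31, whose values here were no larger than their spread between pools. Under median scaling it also turned in Mrpl42 (-0.042), Mrpl40 (-0.036), Mrpl37 (-0.049), Mrps23 (-0.026), Mrps18b (-0.041) and Mrpl12 (-0.062). In Mrpl47 (0.042) and Mrpl49 (0.050) it turned with the mean of detected probes. Of the 33 measured members named by rule, 15 kept their sign in every alternative run, and 39 of 626 values had the other sign. The cause of these changes was not tested. With 3 arrays a group, the number of arrays limits the precision, and dim probes such as those of Mrpl45 and Mrps27 sit near background.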
